A study of Homo sapiens with 6 samples.

Results

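The p53 targets described here are 9 genes that the transcription factor p53 is known to switch on directly: MDM2, CDKN1A, BAX, GADD45A, SESN1, RRM2B, FDXR, TP53I3 and ZMAT3. They were taken by name, not by their values, although earlier results of these data were known at that time. All 9 were found among the 11593 gene symbols measured, with 37 of the 28768 transcripts. The data are 6 libraries from SK-Hep1, an established human line labelled as liver cancer (hepatocellular carcinoma). For 3 libraries the complete probe set against the long noncoding RNA SNHG10 was used, and for 3 controls a probe set against LacZ, which is a gene of bacteria and not of human cells. ChIRP uses biotinylated probes to fish out an RNA together with what is crosslinked to it, and the series asked which messenger RNAs come with SNHG10. The labels' protocol describes total RNA without a retrieval step, so it is not settled which fraction these values measure. The labels name no treatment, stress or genetic change for either group.

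p53 is held low in growing cells because MDM2 marks it for destruction. DNA damage and other stresses break that hold, and p53 then binds paired copies of a short DNA element near its targets, among them MDM2 itself, which closes a feedback loop. The targets serve different ends: a brake on the cell cycle (CDKN1A, GADD45A), cell death (BAX), redox balance and metabolism (SESN1, FDXR, TP53I3), building blocks for DNA repair (RRM2B) and control of other RNAs (ZMAT3).

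All values are FPKM, fragments scaled to transcript length and to the mapped total, which the authors estimated per transcript and which were summed here per gene. FPKM totals were 268794 to 277118 per library, and the read depth behind them is unknown. Across genes, log2(FPKM + 1) values of 2 libraries correlated at a Pearson r of 0.888 to 0.897 within a probe set and 0.887 to 0.896 between sets, as a description, since genes are not independent. SNHG10 itself had no row among those used here, which were all marked protein coding, so the pull-down has no check in these values. Of 10 hepatocyte markers, only CPS1 and SERPINA1 were among the rows used here, at no more than 1.53 and 1.24 FPKM, and ALB was not among them. The keratins KRT8 and KRT18 and the mesenchymal filament VIM were at 465.5 FPKM or more in every library. The other measured genes of those epithelial and mesenchymal lists were lower. KRT19 read 394 to 449 FPKM, FN1 103 to 152, COL3A1 17.6 to 27.6, KRT7 13.9 to 21.6, ACTA2 7.70 to 40.8 and TAGLN 1.38 to 21.0. EPCAM and CDH1 were not among the rows. Of the leukocyte markers, CD68 read 35.3 to 54.4 FPKM and CD14 0.763 to 2.69. The endothelial markers ENG and EGFL7 summed to 40.5 to 50.1 FPKM with SNHG10 probes and 44.7 to 60.6 with LacZ probes, and the other 4 genes of that list were not among the rows. All 3 SNHG10 libraries lay below all LacZ libraries in EGFL7 (of 2 endothelial markers measured), KRT8 (of 4 epithelial) and CPS1 (of 2 hepatocyte). None of the 5 mesenchymal and 2 leukocyte markers measured did so. Over all genes tested the share was 7.21%, and CPS1 was too low to be among those. The part of these markers in the results below was not tested. In such bulk libraries, fewer cells making an RNA and less RNA per cell cannot be told apart. The labels do not say that replicates came from separate cultures, so p-values reflect only the spread between these libraries.

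The promoters shown here are those of the 2 genes whose libraries separated by probe set, MDM2 and BAX. The windows below, from RefSeq (GRCh38.p14), run from 250 bases before to 50 bases after a start. Capitals mark matches to the p53 half-site consensus with at most 1 mismatch and the core C and G kept. The consensus reads the same on both strands, so one search covers both.
MDM2, upstream start (chr12:68807922-68808221, plus strand): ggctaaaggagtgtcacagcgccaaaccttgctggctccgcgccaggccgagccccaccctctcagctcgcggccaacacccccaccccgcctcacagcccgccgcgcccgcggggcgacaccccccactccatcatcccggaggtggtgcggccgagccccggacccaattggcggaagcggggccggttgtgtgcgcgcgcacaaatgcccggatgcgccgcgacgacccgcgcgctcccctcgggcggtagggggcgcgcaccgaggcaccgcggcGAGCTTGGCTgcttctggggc
MDM2, downstream start (chr12:68808767-68809066, plus strand): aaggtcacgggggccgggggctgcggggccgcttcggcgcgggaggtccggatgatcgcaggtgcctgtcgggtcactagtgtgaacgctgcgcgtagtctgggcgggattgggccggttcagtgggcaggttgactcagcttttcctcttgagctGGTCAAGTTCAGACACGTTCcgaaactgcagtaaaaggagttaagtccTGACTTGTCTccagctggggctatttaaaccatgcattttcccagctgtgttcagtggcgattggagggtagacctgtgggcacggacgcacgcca
BAX (chr19:48954625-48954924, plus strand): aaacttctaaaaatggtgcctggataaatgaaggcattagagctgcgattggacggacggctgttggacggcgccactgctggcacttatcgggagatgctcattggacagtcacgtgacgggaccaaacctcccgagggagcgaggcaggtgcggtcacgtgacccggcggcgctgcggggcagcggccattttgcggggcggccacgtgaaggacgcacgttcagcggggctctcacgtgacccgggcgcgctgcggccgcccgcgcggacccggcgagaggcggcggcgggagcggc

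The downstream MDM2 window held 2 half-sites directly side by side, the first starting 94 bases before the start, and 1 more at 46 bases before it. Such a side-by-side pair was in 0.157% of the 35116 windows of this length in the table, and a half-site with at most 1 mismatch in 45.1%. The upstream MDM2 window held 1 half-site, after the start, and the BAX window none. Over 14 windows of 7 targets, 9 held a half-site with at most 1 mismatch, and 2 held a side-by-side pair, both at the downstream MDM2 starts. Those 2 windows begin at 68808767 and 68808774, overlap almost fully and hold the same pair. The upstream MDM2 windows, from 68807922 and 68807927, overlap likewise, so the 9 are not separate places. FDXR and SESN1 each had 1 window with a half-site without a mismatch, which 6.63% of all windows hold. A match describes letters in a window, and p53 sites of several targets are known to lie outside windows of this size, as in CDKN1A.

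CDKN1A was the most abundant of the 9 targets, and SESN1 was near 0. Ordered by their mean over the 6 libraries, the genes ran from CDKN1A (84.3 FPKM), BAX (60.4), MDM2 (33.8), GADD45A (24.9) and FDXR (21.7) to TP53I3 (15.1), RRM2B (8.10) and ZMAT3 (7.31), with SESN1 last at 0 to 2.78. Each gene's range over the libraries overlapped that of the next gene in this order except for ZMAT3, whose lowest library (3.34) lay above the highest of SESN1 (2.78). The median of the 9 means was 21.7 FPKM, beside 6.54 over all 11593 genes. CDKN1A ranked at number 445 and BAX at 666 among all genes, and SESN1 at 10273.

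**Figure D1:**
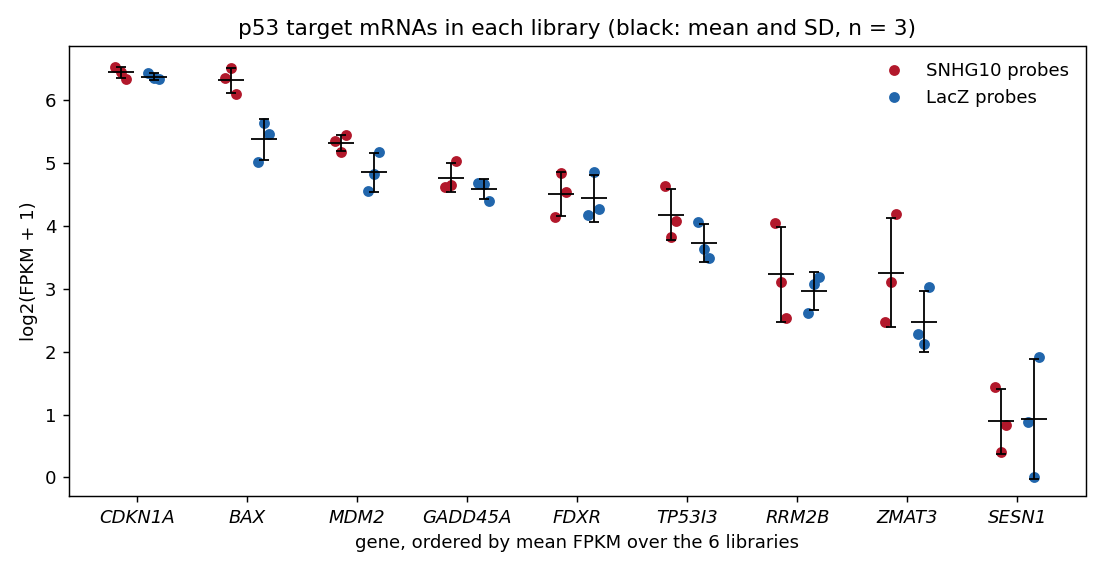
Levels of the 9 p53 targets as log2(FPKM + 1) in each of 3 SNHG10 and 3 LacZ libraries, with the mean and SD of each probe set in black. The BAX and MDM2 points of the probe sets do not overlap, the CDKN1A points lie close together, and 1 LacZ library has SESN1 at 0.

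No p53 target passed the test between SNHG10 and LacZ probes. Of the 9, 8 reached 1 FPKM in at least 3 libraries and were tested with limma, and 0 of 8 were called in either direction, as were 0% higher and 0% lower of 10304 genes. The smallest adjusted p over all those genes was 0.316 by limma, and 558 genes had an unadjusted p under 0.05 (574 with limma without trend and 544 with robust eBayes). All 8 targets nevertheless had a positive difference (higher with SNHG10 probes), where 43.3% of all genes tested did. With libraries rescaled by median ratios, the count was again 8 of 8, beside 49.8% of all genes. The median log2 difference of the 8 was 0.36, and that of all genes -0.05. All log2 differences here were taken after adding 1 to each FPKM, so the change of a low gene comes out smaller than it is.

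In BAX and MDM2, all 3 SNHG10 libraries lay above all 3 LacZ libraries. That separation was seen in 2 of 8 targets and in 4.22% of all genes tested, and the opposite in 0 of 8 targets and 7.21% of genes. The same 2 of 8 had an unadjusted p under 0.05 with a positive difference, as did 2.1% of all genes. The exact permutation test over 20 assignments of 3 libraries against 3 cannot give a p below 0.1, and both genes were at that limit.

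**Figure D2:**
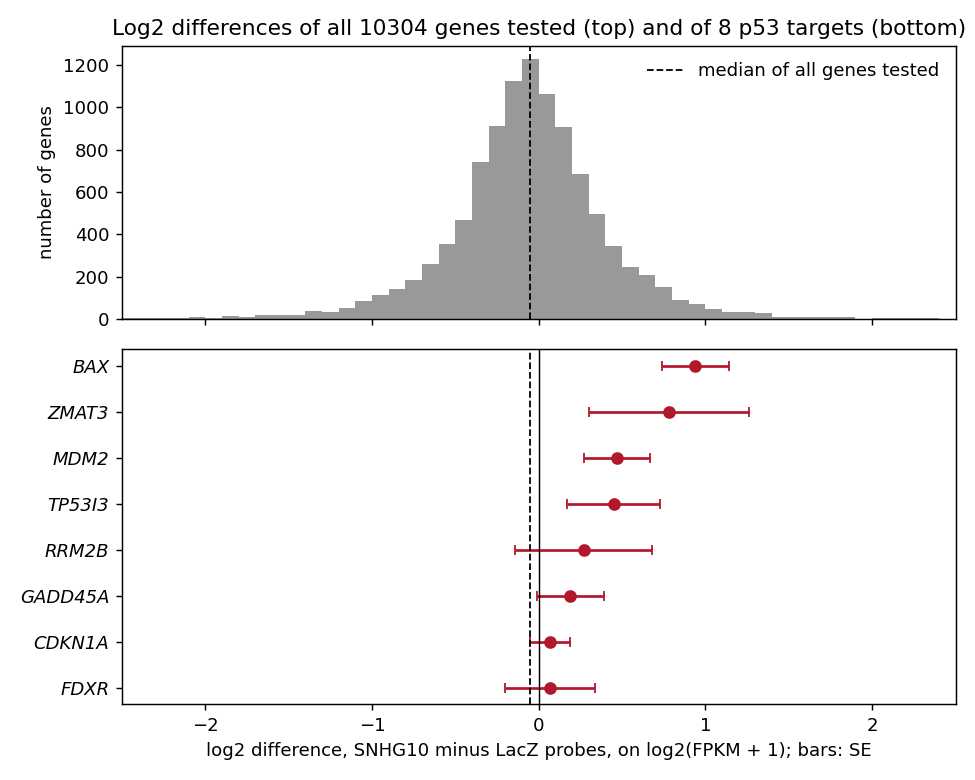
Log2 differences, SNHG10 minus LacZ probes: a histogram of all 10304 genes tested (13 genes beyond 2.5 either way are not drawn) and the 8 tested p53 targets with their SE. All 8 points lie to the right of 0, from FDXR and CDKN1A at 0.07 to BAX at 0.94, and the dashed line marks the median of all genes.

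BAX encodes the pore-forming protein that opens the outer mitochondrial membrane in cell death. It lies at chromosome 19, 49458134 to 49465055, plus strand (hg19, as are all gene positions below), and read 80.5, 90.0 and 68.1 FPKM in the SNHG10 libraries. The LacZ libraries read 31.5, 49.2 and 43.2. The lowest SNHG10 library was thus well above the highest control. The means were 79.6 ± 11.01 and 41.3 ± 8.99 (SD, n = 3 each), a ratio of 1.93. The log2 difference was 0.94 ± 0.20 (SE), with an unadjusted p of 0.00164 and an adjusted p of 0.691 by limma, so it was not called among 10304 genes.

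The higher sum of BAX was spread over several of its 5 rows. BAX-202, the highest, read 43.0, 50.7 and 29.3 FPKM against 21.5, 24.3 and 23.1, and also separated the probe sets. BAX-203 read 10.6, 10.7 and 6.59 with SNHG10 probes, and every LacZ library listed it at 0. BAX-201 did not separate them, with 8.44, 28.7 and 32.2 against 10.01, 24.9 and 20.2. BAX-209 and BAX-213 were above 0 only in SNHG10 replicate 1, at 3.77 and 14.8.

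BAX-203 had the smallest adjusted p of any p53 target row, 0.0872 by limma, and did not pass. Of 16 target rows tested among 16618 transcript rows, 0 passed, while 0.0481% of all rows were called higher and 0.0421% lower. Separation of the libraries was seen in 2 of those 16 rows, BAX-202 and BAX-203, both higher with SNHG10 probes, and in 4.48% of all rows. No target row had all SNHG10 libraries below, as 6.06% of all rows did. Without the 3 BAX rows at 0 in every LacZ library, the remaining 2 summed to 51.4, 79.3 and 61.5 FPKM against 31.5, 49.2 and 43.2, still separated, with a smaller ratio of 1.55. Those 2 rows are also the only BAX rows above 0 in all libraries. That subset was chosen after its values were seen, and its log2 difference was 0.62 (adjusted p = 0.911 by limma).

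**Figure D3:**
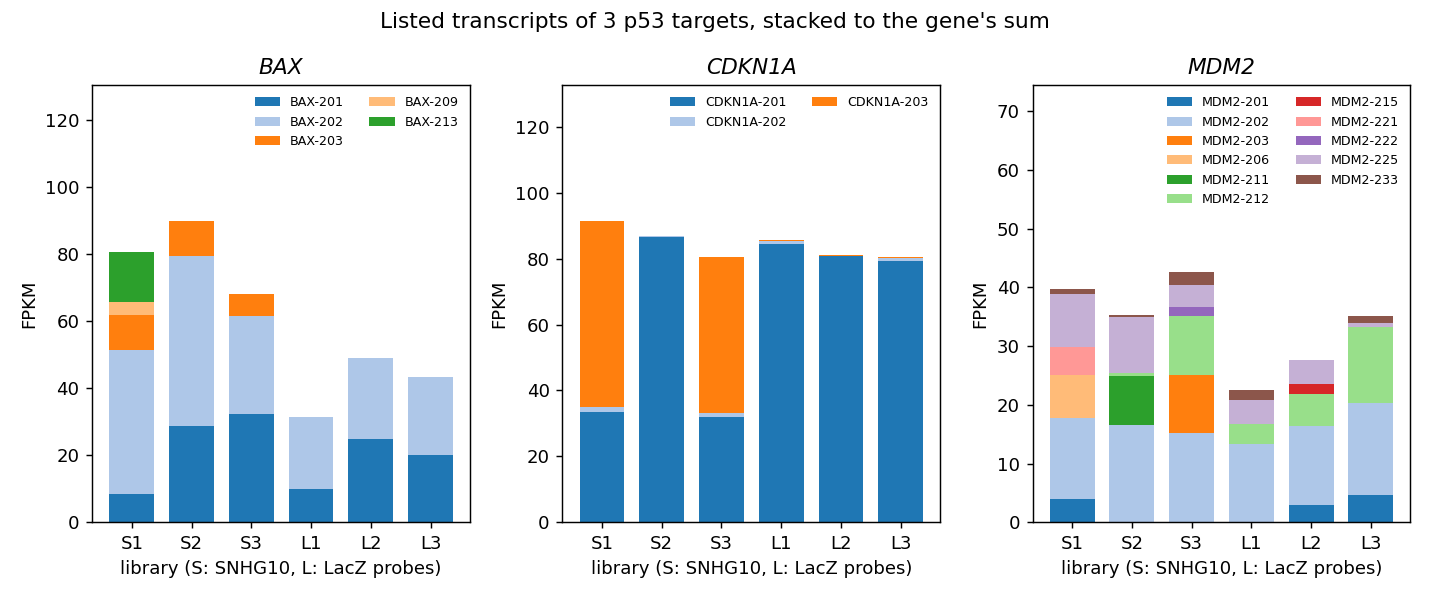
FPKM of each listed transcript of BAX, CDKN1A and MDM2, stacked to the gene's sum, in the 3 SNHG10 (S1 to S3) and 3 LacZ (L1 to L3) libraries. CDKN1A sums stay between 80.3 and 91.5 FPKM while the split between CDKN1A-201 and CDKN1A-203 changes, BAX-203 appears only with SNHG10 probes, and MDM2-202 is much the same in all 6.

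BAX belongs to a family of death effectors and guardians, and the probe sets overlapped in the sums of the 4 relatives measured. BAK1, the other main pore former, averaged 14.1 ± 1.37 and 13.4 ± 2.54 FPKM, and BOK, a further relative, 19.3 ± 3.54 and 20.03 ± 4.79 (SD, n = 3 each). Of the guardians that restrain BAX, BCL2L1 averaged 60.6 ± 2.51 and 63.5 ± 9.03. MCL1 read 7.36, 35.5 and 38.6 with SNHG10 probes against 29.7, 33.3 and 38.7. None of the 4 passed (adjusted p of 0.928 to 0.992 by limma). With its highest row alone, BAK1 had a log2 difference of 2.63 (adjusted p = 0.940 by limma), beside 0.09 for its sum.

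MDM2, the ubiquitin ligase that keeps p53 low (chromosome 12, 69201956 to 69244466, plus strand), read 39.7, 35.3 and 42.5 FPKM with SNHG10 probes. With LacZ probes it read 22.6, 27.6 and 35.0, so the closest libraries of the sets were almost equal. The means were 39.2 ± 3.63 and 28.4 ± 6.27 (SD, n = 3 each). The log2 difference was 0.47 ± 0.20 (SE), with an unadjusted p of 0.0477 and an adjusted p of 0.885 by limma.

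The MDM2 difference did not sit in its most abundant row. MDM2-202, which spans the whole gene from the upstream start, read 13.8, 16.6 and 15.1 FPKM against 13.4, 13.4 and 15.6, a log2 difference of 0.09. The 3 rows beginning upstream (first bases 69201956 to 69202244) summed to 17.8, 16.6 and 15.1 FPKM against 13.4, 18.1 and 20.3, with overlapping sets. The 8 rows beginning from 69202797 on summed to 22.0, 18.8 and 27.4 against 9.22, 9.48 and 14.8, and all 3 SNHG10 libraries lay above. This split at the widest gap between starts was made after the values were seen and was not tested.

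Rows of the downstream MDM2 starts were not steady from library to library. These hg19 positions were not converted, so no row was assigned to a printed window. The 4 rows that begin at 69202797 to 69202804 summed to 9.17, 18.4 and 15.3 FPKM against 7.47, 9.48 and 13.6, and overlapped. The 4 that begin at 69202992 summed to 12.8, 0.420 and 12.1 against 1.751, 0 and 1.11. Of all 11 MDM2 rows, 6 were above 0 in 1 library only, for example MDM2-211 at 8.35 in SNHG10 replicate 2 and MDM2-203 at 9.94 in SNHG10 replicate 3. MDM4, a close relative that also holds p53 in check, read 9.41, 7.47 and 5.89 FPKM against 10.3, 10.4 and 5.14, with overlapping sets.

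CDKN1A encodes p21, the inhibitor of cyclin-dependent kinases through which p53 halts the cell cycle. The gene (chromosome 6, 36646435 to 36655116, plus strand) read 91.5, 87.0 and 80.3 FPKM with SNHG10 probes against 85.7, 80.95 and 80.4 for the controls. These values lay closer together than those of any other target, the highest being 1.14 times the lowest, beside a median of 1.80 over 4222 genes averaging 10 FPKM or more. The log2 difference was 0.07 ± 0.12 (SE; adjusted p = 0.956 by limma), with overlapping libraries, and 0.02 without SNHG10 replicate 1.

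Below the steady sum, CDKN1A changed its split between near-identical rows. CDKN1A-201 held 98.5% to 99.7% of the gene in the LacZ libraries and 99.5% in SNHG10 replicate 2. It held 36.6% and 39.7% in SNHG10 replicates 1 and 3, where CDKN1A-203 read 56.6 and 47.3 FPKM, against no more than 0.337 in the other 4 libraries. The rows begin at 36646435 and 36646487 and end at 36655116 and 36655114. With the highest row alone, CDKN1A had a log2 difference of -0.83, opposite in sign to the sum, and also not called (adjusted p = 0.940 by limma).

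The genes most like CDKN1A over the 6 libraries were FAM129B, PRDX6 and LAMP1. Their root mean square differences from it on the log2(FPKM + 1) scale were 0.085, 0.102 and 0.107, so they share both its level and its steadiness. CDKN1B, the sister inhibitor p27, read 3.64, 12.3 and 11.8 FPKM against 10.5, 10.5 and 14.3, well under CDKN1A in each library.

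GADD45A, a small stress protein that slows entry into mitosis (chromosome 1, 68150744 to 68154021, plus strand), read 23.8, 24.0 and 31.95 FPKM against 24.7, 24.6 and 20.1. The probe sets overlapped, and the log2 difference was 0.19 ± 0.20 (SE; adjusted p = 0.931 by limma). It was 0.05 without SNHG10 replicate 3 and 0.09 without LacZ replicate 3. Its shorter row GADD45A-201 was above 0 in 2 libraries, at 11.6 FPKM in SNHG10 replicate 3 and 9.03 in LacZ replicate 2. GADD45B, a paralog, averaged 23.3 ± 8.15 and 24.3 ± 3.16 FPKM (SD, n = 3 each), a level like that of GADD45A.

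TP53I3, an oxidoreductase tied to oxidative stress in p53-driven death (chromosome 2, 24300303 to 24308085, minus strand), read 23.9, 13.2 and 15.9 FPKM with SNHG10 probes. With LacZ probes it read 15.8, 11.4 and 10.3, and the sets overlapped. The log2 difference was 0.45 ± 0.28 (SE; adjusted p = 0.928 by limma), 0.22 without SNHG10 replicate 1 and 0.29 with the highest row alone. That library alone had TP53I3-203, at 8.08 FPKM. CRYZ, a related quinone reductase, read 8.58, 12.3 and 8.58 against 7.28, 6.998 and 6.74, all SNHG10 libraries above. Its log2 difference was 0.42 ± 0.25 (SE; adjusted p = 0.928 by limma), and -0.99 with its highest row alone.

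FDXR, the mitochondrial reductase that passes electrons to ferredoxin (chromosome 17, 72858619 to 72869156, minus strand), read 16.6, 27.7 and 22.3 FPKM against 17.1, 28.1 and 18.3. Both sets covered nearly the same range, and the log2 difference was 0.07 ± 0.27 (SE; adjusted p = 0.979 by limma). Its sign was not steady: it was -0.06 without LacZ replicate 1, -0.01 without LacZ replicate 3, -0.10 without SNHG10 replicate 2 and -0.45 with the highest row alone. FDXR-201 held 99.7% of the gene in LacZ replicates 1 and 3 and 25.9% in LacZ replicate 2, where FDXR-214 read 19.4 FPKM. Its electron acceptor FDX1 was low, at 1.37 to 3.73 FPKM.

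SESN1, a sestrin that restrains growth signalling under stress (chromosome 6, 109307640 to 109416022, minus strand), was the target that stayed under the filter. Its 1 listed row read 1.71, 0.330 and 0.783 FPKM with SNHG10 probes against 0.838, 0 and 2.78 for the controls. A listed 0 can be a failed estimate, and the mean behind its place in the order and its rank includes that 0. With no filter on low values its log2 difference was -0.04 ± 0.56 (SE; adjusted p = 0.995 by limma). The paralog SESN2 was far higher, at 16.6, 20.6 and 22.7 FPKM against 25.7, 24.0 and 19.7, with overlapping sets.

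RRM2B, the p53-induced small subunit of ribonucleotide reductase that supplies deoxynucleotides outside S phase (chromosome 8, 103216730 to 103251346, minus strand), read 15.5, 7.66 and 4.80 FPKM against 5.13, 7.43 and 8.11. SNHG10 replicate 1 stood above the other 5 libraries, and the log2 difference of 0.27 ± 0.41 (SE; adjusted p = 0.946 by limma) was -0.13 without it, 0.10 without LacZ replicate 1 and 0.62 without SNHG10 replicate 3. RRM2, the small subunit of dividing cells, was higher in every library, at 28.9 ± 1.42 and 30.1 ± 5.95 FPKM (SD, n = 3 each). The large subunit RRM1, partner to both, read 15.3, 0 and 1.4e-05 FPKM with SNHG10 probes against 20.6, 18.0 and 23.5 with LacZ probes (adjusted p = 0.885 by limma). Without SNHG10 replicate 1, RRM1 passed as lower, at a log2 difference of -4.43 (adjusted p = 0.0333 by limma). That run left only the SNHG10 libraries at 0 and 1.4e-05 FPKM. Such values can be failed estimates, so the run does not show that RRM1 was lost.

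ZMAT3, a zinc finger protein that binds RNA (chromosome 3, 178735011 to 178790067, minus strand), read 4.57, 7.59 and 17.3 FPKM against 3.86, 3.34 and 7.15. It varied the most of the 8 tested targets, the highest library being 5.18 times the lowest. Its log2 difference of 0.78 ± 0.48 (SE; adjusted p = 0.928 by limma) came with overlapping sets and was 0.31 without SNHG10 replicate 3 and 1.17 without SNHG10 replicate 1. In SNHG10 replicate 3, ZMAT3-202 and ZMAT3-203 read 6.89 and 7.76 FPKM, and ZMAT3-202 read 3.12 in LacZ replicate 3. The leading row ZMAT3-201 read 4.57, 7.43 and 2.68 against 3.86, 3.34 and 3.93, and its log2 difference was 0.24.

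The rows of most targets changed from library to library in this way. Of 37 rows, 12 were above 0 in all 6 libraries, 25 were at 0 in at least 1 and 11 were above 0 in 1 library only. On the log2(FPKM + 1) scale, the SD within a probe set was 0.07 for the CDKN1A sum and 0.56 for its highest row, and 0.36 and 0.56 for FDXR. The order was the opposite in MDM2 (0.24 for the sum and 0.12 for its highest row), RRM2B (0.58 and 0.43) and ZMAT3 (0.70 and 0.43). The median over the sums of all genes tested was 0.40, above which only RRM2B and ZMAT3 lay among the 8 tested targets. None of the 9 targets overlapped another gene measured here.

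Other known p53 targets had differences of both signs. Of 43 further targets in 4 lists, 41 were among the rows and 37 were tested, and 0 passed in either direction, with 0 at an unadjusted p under 0.05. Of the 37, 15 were positive in log2 difference and 22 were negative (after median-ratio scaling, 19 and 18), with a median of -0.04 beside -0.05 over all genes. In none of these 37 did the probe sets separate, beside 4.22% of all genes tested with SNHG10 libraries above and 7.21% with them below. FAS, a death receptor that stayed under the filter and was named after its values were seen, read 2.79, 0.670 and 1.11 FPKM with SNHG10 probes, and every LacZ library listed it at 0. PIDD1, SPATA18 and ACER2 also stayed under the filter, and their sets overlapped. By mean, PIDD1 was lower with SNHG10 probes (0.0306 against 0.866 FPKM). SPATA18 (1.09 against 0.367) and ACER2 (0.992 against 0.332) were higher. Whether the 8 tested targets differ from the 37 others tested was not tested.

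**Figure D4:**
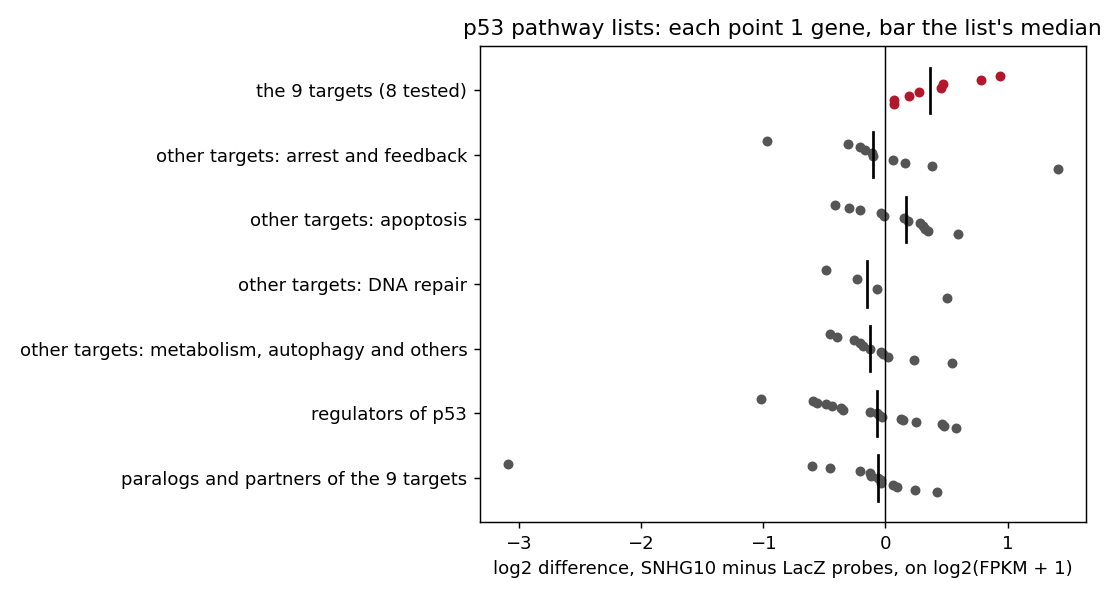
Log2 differences, SNHG10 minus LacZ probes, of each tested gene in the p53 pathway lists, with the list's median as a bar. The 8 targets (red) lie above 0, and the other lists spread to both sides of it, with RRM1 at -3.09 at the far left.

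Among 10 targets of cell cycle arrest and feedback, 4 were positive and 6 negative. PLK3, a stress kinase, read 8.12, 8.74 and 10.9 FPKM against 0.830, 9.75 and 1.88, with a log2 difference of 1.41 ± 0.61 (SE; adjusted p = 0.885 by limma) and overlapping sets. It was 2.15 without LacZ replicate 2 and 0.87 without LacZ replicate 1, with adjusted p of 0.506 to 0.940 by limma over its alternatives. PLK2, another kinase of that family, was abundant at 140.2, 103 and 162 FPKM against 149.8, 129 and 190.3. BTG1, which slows growth, read 3.45, 6.24 and 5.12 against 6.78, 2.32 and 56.2, so LacZ replicate 3 stood far above the rest, and the log2 difference of -0.97 was 0.20 without it.

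Of 12 tested genes of cell death, 7 were positive and 5 negative, or 9 and 3 after median-ratio scaling. BBC3 and PMAIP1 encode the death inducers PUMA and NOXA, which act upstream of BAX. BBC3 read 3.58, 8.29 and 6.50 FPKM against 2.41, 6.68 and 2.60, and PMAIP1 3.63, 3.12 and 1.448 against 2.85, 3.01 and 6.03. TP53INP1, a stress-induced nuclear protein, read 6.43, 4.12 and 3.84 against 3.71, 4.43 and 2.49. All were below BAX in each library, and their sets overlapped.

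Of 4 DNA repair targets, 1 was positive and 3 negative. POLH, a polymerase that copies past damage, read 10.04, 10.3 and 12.2 FPKM against 22.5, 15.5 and 10.8. POLK, of the same class, read 5.60, 3.80 and 3.31 against 4.02, 2.71 and 1.59. XPC, which recognises damaged DNA, read 6.37, 11.1 and 5.87 against 8.27, 8.85 and 9.78.

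Among 11 tested targets of metabolism, autophagy and other roles, 3 were positive and 8 negative, or 5 and 6 after median-ratio scaling. GDF15, a secreted stress hormone, read 114, 88.75 and 89.7 FPKM against 115, 108 and 126. GPX1, a peroxide-removing enzyme, read 37.5, 63.0 and 63.8 against 81.4, 88.2 and 54.2. PRKAB1, a subunit of the energy sensor AMPK, read 6.25, 9.73 and 8.06 against 13.8, 9.35 and 9.60. The adjusted p of these 3 ran from 0.909 to 0.928 by limma.

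Of 17 tested regulators of p53, 6 were positive and 11 negative (8 and 9 after median-ratio scaling), and none passed. CREBBP, an acetyltransferase that acts with p53, read 8.10, 9.93 and 10.7 FPKM with SNHG10 probes against 15.6, 24.8 and 21.7, a log2 difference of -1.02 ± 0.25 (SE; adjusted p = 0.840 by limma) that lay between -1.20 and -0.28 over 17 alternatives. ATM, the kinase that signals DNA breaks, read 5.82, 6.86 and 7.33 against 10.4, 13.4 and 8.28, and its log2 difference of -0.59 was 0.25 with only the rows above 0 in all libraries. DAXX, a chaperone that binds MDM2, read 15.8, 14.1 and 27.4 against 25.7, 25.2 and 31.7, with overlap. All 3 SNHG10 libraries lay below in CREBBP, ATM and HIPK2 and above in RCHY1, which is 3 and 1 of the 17. Over all genes tested, 7.21% lay below and 4.22% above. HIPK2, a kinase of p53, read 18.3, 19.4 and 19.7 against 26.5, 24.9 and 22.8, and RCHY1, a ubiquitin ligase of p53, 2.63, 1.88 and 1.79 against 1.42, 0.627 and 1.22. The last pair was named after its values were seen. TP73, a relative of p53, was low at 0.702 to 2.99 FPKM.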

How the data were processed

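RNA was measured in 6 libraries, 3 per probe set, grouped by their titles. Per the file headers, the values the authors deposited are FPKM for single transcripts. The submitters' processing notes name Bowtie2 2.1.0 and hg19. How FPKM were estimated is not given in the sources used here. Low values do not fall on whole reads (159 lie between 0 and 0.001 FPKM), so no depth, interval or floor is given.

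FPKM were summed per gene symbol, over rows that were all marked protein coding. The 10304 genes that reached 1 FPKM in 3 or more libraries were fitted with limma 3.58.1 (R 4.3.3; trended eBayes) after a log2(FPKM + 1) transform; p-values were adjusted over all of them by Benjamini-Hochberg at a threshold of 0.05. Transcript rows were fitted likewise. For simulated data, each row's values were shuffled over the libraries, and some rows were then raised in the SNHG10 libraries. There the fits made more false calls than the threshold allows, slightly so for genes and far more so for transcript rows. They found few of the smallest changes. Separate shuffling of rows removes structure shared by whole libraries, so these rates need not hold for the real data. This limits the transcript calls and the adjusted p of BAX-203 given above. Exact permutation tests (two-sided) used scipy 1.17.1, and tables pandas 2.3.3. The 9 targets, the lists and the tests were chosen with earlier results of these data known. Named were the 9 targets, the 3 genes per list with the smallest p, every measured relative or partner of a target (ZMAT2 is given in the closing section), and the 3 genes nearest to CDKN1A. The gene encoding p53 is not reported here. RefSeq windows matched 7 of the 9 targets by symbol. Any target window on chromosome 8, where RRM2B lies, was left out, so RRM2B was not searched. Alternatives were pseudocounts of 0.1 and 5, no filter and a filter at 5 FPKM, median-ratio and quantile scaling, eBayes without trend and robust, a replicate block, each library left out, the highest transcript alone and, added after seeing the data, only transcripts above 0 in all libraries.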

Additional observations from a re-analysis of the deposited data

How the results depend on the processing

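No p53 target passed the threshold under any of the 17 alternatives, and BAX (0.62 to 1.08), MDM2 (0.09 to 0.63), TP53I3 (0.22 to 0.63), ZMAT3 (0.24 to 1.17) and GADD45A (0.05 to 0.26) stayed positive in log2 difference in each. Over leave-one-out runs RRM2B ranged from -0.1344 to 0.6187 and FDXR from -0.0975 to 0.2806. The highest transcript alone gave -0.8319 for CDKN1A and -0.4491 for FDXR, and steady transcripts gave -0.4491 for FDXR. The number of genes called was 0 to 1 higher and 0 to 1 lower over leave-one-out runs (1 higher without LacZ replicate 2, and RRM1 lower without SNHG10 replicate 1) and 0 in the alternatives to filter, scaling, pseudocount and prior. Transcript rows called fell from 8 higher and 7 lower to 0 and 0 in every leave-one-out run. With the replicate block, 0 transcript rows were called higher, 0 lower and 0 genes, and the block changed no call of a p53 target. Libraries that share a number had deviations from their set means correlated at 0.015, 0.012 and 0.016, and other pairs at -0.024 to 0.009. Every library thus correlated best with its own number, but all these values were very small. They are also not independent, since the deviations within a set cancel out. The main fit did not treat them as pairs, since the labels state no shared culture per number. The cause of these changes was not tested.

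Other named genes changed sign. With the highest transcript these were TP53INP1 (-1.1057), CRYZ (-0.9883) and BCL2L1 (0.2034), with steady transcripts POLK (-0.0485) and ATM (0.2524), with median-ratio scaling BOK (0.02), BCL2L1 (0.0012) and RRM2 (0.02), and with quantile normalization RRM2 (0.0142). Leave-one-out ranges that crossed 0 were -1.8583 to 0.1957 for BTG1, -0.456 to 0.0136 for TP73, -0.717 to 0.0449 for CDKN1B, -0.0223 to 0.2229 for BAK1, -0.2393 to 0.1138 for BOK, -0.1564 to 0.0447 for BCL2L1, -0.9898 to 0.1327 for MCL1, -0.3105 to 0.197 for GADD45B, -0.2078 to 0.0568 for RRM2, -0.4272 to 0.0224 for MDM4 and -0.2309 to 0.3446 for ZMAT2. Read depth is unknown, which limits what low values such as those of SESN1 can show.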
